A study of Ovis aries with 16 samples.

Results

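The most abundant features in these sheep testis libraries and the named small nuclear and nucleolar RNAs beside them comprise 6 of the 25197 features listed. ENSOARG00000023715 and ENSOARG00000023915 were taken for their abundance, being first and second in mean CPM (reads on a feature per 1000000 reads on genes) over all libraries. U1 (ENSOARG00000024085), U2 (ENSOARG00000021259), SNORA71 (ENSOARG00000023607) and SNORA74 (ENSOARG00000023720) were taken because the authors' lists of genes give these identifiers those symbols. The symbols come from lists of genes that the authors selected on these sheep, so the diet contrast chose these 4 features, and their diet values are given as a description without a test. These lists were used only in part, so further features with these symbols may exist. The study names its most abundant transcript 7SK without pairing that name with an identifier, and no source used here names ENSOARG00000023915. Both are therefore called by their identifiers.

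7SK is a small nuclear RNA that holds the kinase P-TEFb inactive in a particle with HEXIM, LARP7 and MEPCE, and so restrains the release of paused RNA polymerase II. U1 pairs with the 5′ splice site and U2 with the branch point of introns, each in a particle with Sm proteins. RNAs named SNORA belong to the H/ACA class of small nucleolar RNAs, which guide the conversion of uridine to pseudouridine, mostly in ribosomal RNA. All of these RNAs lack the long poly(A) tail of an mRNA, whereas the libraries were made with a TruSeq kit for mRNA, which selects poly(A). The genes of 7SK, U1 and U2 have many related sequences in mammalian genomes. How reads that match several of them were counted is not given in the sources used here, so the level of any 1 copy is uncertain.

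The RNA came from the right testis of adult male Merino sheep, 8 well-fed (high diet) and 8 underfed (low diet), with 1 library per sheep. The diets were set for a gain or a loss of 10% of body mass over 65 days, and no sheep kept at constant mass were sequenced. Pieces from the top, middle and bottom of the testis were mixed, so each library holds all testicular cell types. In such bulk RNA, fewer cells of a type and less RNA per cell cannot be told apart. Totals recovered from the files were 9552149 to 18230076 reads on genes in well-fed sheep and 7646547 to 14690953 in underfed sheep.

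Underfed sheep 6 and 7 stood apart from the other 14 sheep, with the highest levels of 5 of the 6 features and the lowest of U2, and the main results are given with and without them. Of the markers listed for the cell types of the testis, 8 of 35 had an identifier, and all 8 were detected. The 3 of 11 matched germ cell markers (DDX4, SYCP1 and SYCP3) summed to 344 CPM in underfed sheep 6 and 444 CPM in underfed sheep 7, against 570 to 991 CPM in the other underfed sheep and 670 to 1391 CPM in well-fed sheep. SYCP1, a component of the synaptonemal complex of meiotic cells, was at 15.7 CPM in underfed sheep 6 and at 14.2 CPM in underfed sheep 7. Its mean was 203 ± 87.2 CPM (SD over 8 sheep) in the well-fed group. In the underfed group, with sheep 6 and 7 included, it was 100 ± 57.9 CPM (SD over 8 sheep). The other 5 matched markers in underfed sheep 6 and 7 lay within the range of the remaining underfed sheep.

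The matched markers also moved with diet. Of the 8, 7 were called between diets by limma, where a call needs an adjusted p under 0.1 and a ratio of mean CPM above 1.5, with 4 higher and 3 lower in underfed sheep. Their identifiers come from the authors' lists of genes selected on these sheep. A high count follows from that choice and is a description. Of all tested features, 16.2% were called. The 2 of 5 matched Sertoli cell markers (WT1 and INHA) summed to 14.01 to 55.8 CPM in well-fed and 50.5 to 158 CPM in underfed sheep. MYH11, the 1 of 4 matched peritubular and vascular markers, was at 42.6 to 245 CPM in well-fed and 110 to 496 CPM in underfed sheep. PTPRC, the 1 of 4 matched leukocyte markers, was at 10.9 to 33.6 and 19.3 to 59.4 CPM. STAR, the 1 of 5 matched Leydig cell markers, was at 16.02 to 73.0 and 6.71 to 27.8 CPM. No marker of red cells was matched. The part of cell composition in the diet differences and correlations that follow was not tested.

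The 6 features together took 1.29% to 4.21% of the reads on genes in well-fed sheep (2.48% ± 0.955, SD, n = 8) and 1.86% to 7.39% in underfed sheep (3.59% ± 1.93, n = 8). These are shares of reads and not of molecules, since they are not divided by RNA length. ENSOARG00000023715 was the most abundant feature in every library. It took 0.871% of the reads in well-fed sheep 7, with a 95% Wilson interval of 0.867 to 0.876%, and 4.85% in underfed sheep 7, with an interval of 4.84 to 4.87%. At this depth the counting error was far below the spread between sheep. ENSOARG00000023915 ranked between 2 and 13 and was second in 7 libraries. The feature just outside the first pair, ENSOARG00000020089, had a mean of 4616 CPM against 6775 CPM for ENSOARG00000023915, and its range of 1659 to 8680 CPM overlapped with that of ENSOARG00000023915 (2260 to 22404 CPM).

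U2 ranked 5 in mean CPM, at 3377 CPM, and U1 ranked 149, at 671 CPM. The SNORA features were not abundant. SNORA71 ranked 8684, at a mean of 13.3 CPM, and was above 5 CPM in 13 libraries. SNORA74 ranked 7440, at 20.0 CPM, and was above 5 CPM in 15 libraries, with as few as 22 reads in underfed sheep 1. All 6 features passed the filter of more than 5 CPM in at least 8 libraries, as did 11148 features in all. SNORA71 passed it with 6 well-fed and 7 underfed sheep, and SNORA74 with 8 and 7.

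**Figure D1:**
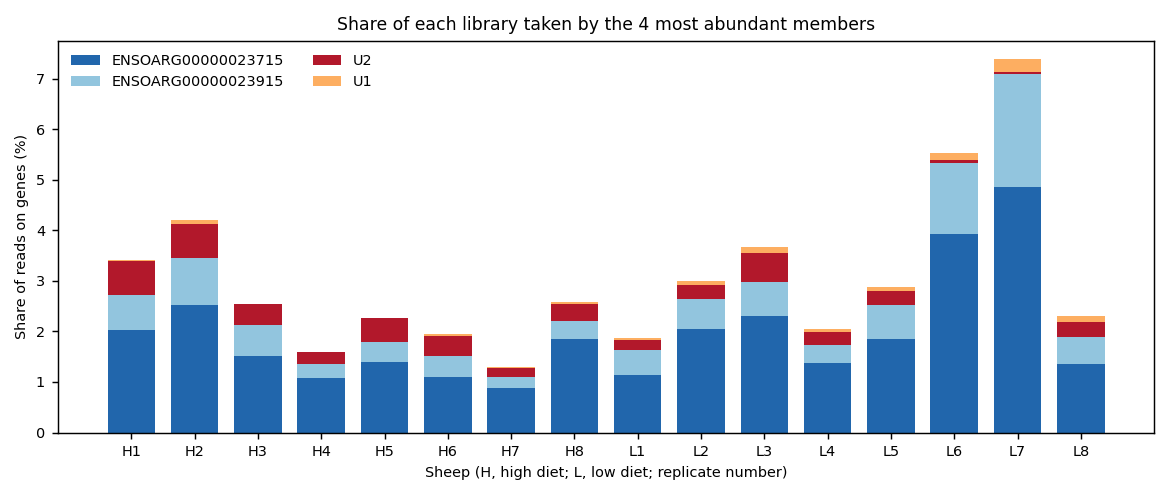
Share of reads on genes (%, linear axis) taken by ENSOARG00000023715, ENSOARG00000023915, U2 and U1 in each of 16 sheep (H, high diet, and L, low diet, with replicate numbers); the bars are stacked, and SNORA71 and SNORA74 are too low to be drawn. ENSOARG00000023715 is the tallest segment in every sheep, and the U2 segment almost disappears in L6 and L7.

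ENSOARG00000023715 did not differ between diets beyond the spread between sheep. Its level was 8714 CPM in the lowest, 14543 CPM in the median and 25156 CPM in the highest of the well-fed sheep. In underfed sheep the corresponding levels were 11343, 19483 and 48538 CPM. Underfed sheep 6 and 7, at 39355 and 48538 CPM, were above every well-fed sheep, and the other 6 underfed sheep lay within the range of the well-fed sheep. The share of reads was 1.54% ± 0.556 (SD, n = 8) in well-fed and 2.36% ± 1.34 (n = 8) in underfed sheep, a difference of 0.815 percentage points (two-sided exact permutation test, p = 0.145). Over all tested features, limma gave a log2 fold change of 0.34 ± 0.33 (SE) from well-fed to underfed sheep, with an adjusted p = 0.473. Without underfed sheep 6 and 7 the difference in share was 0.136 percentage points (exact permutation p = 0.628) and the limma log2 fold change was -0.025 (adjusted p = 0.952).

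ENSOARG00000023915 gave a similar picture. Its lowest, median and highest levels were 2260, 4020 and 9309 CPM in well-fed sheep. They were 3575, 6306 and 22404 CPM in underfed sheep. Here too only underfed sheep 6 and 7, at 13906 and 22404 CPM, exceeded every well-fed sheep. It took 0.488% ± 0.236 (SD, n = 8) of the reads in well-fed and 0.867% ± 0.636 (n = 8) in underfed sheep, a difference of 0.379 percentage points (two-sided exact permutation test, p = 0.133). The limma log2 fold change was 0.54 ± 0.36 (SE; adjusted p = 0.307), and without underfed sheep 6 and 7 it was 0.10 (adjusted p = 0.816). Neither of the most abundant features was therefore called. Of all tested features, 16.2% (1808 of 11148) were called.

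Within a library, the ratio of ENSOARG00000023915 to ENSOARG00000023715 varied less than either feature. It ran from 0.190 in well-fed sheep 8 to 0.462 in underfed sheep 7, a 2.42-fold range, whereas ENSOARG00000023715 spanned 5.57-fold and ENSOARG00000023915 spanned 9.91-fold. The log2 ratio was higher by 0.20 in underfed than in well-fed sheep, which did not exceed the variation among animals (two-sided exact permutation test, p = 0.246).

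**Figure D2:**
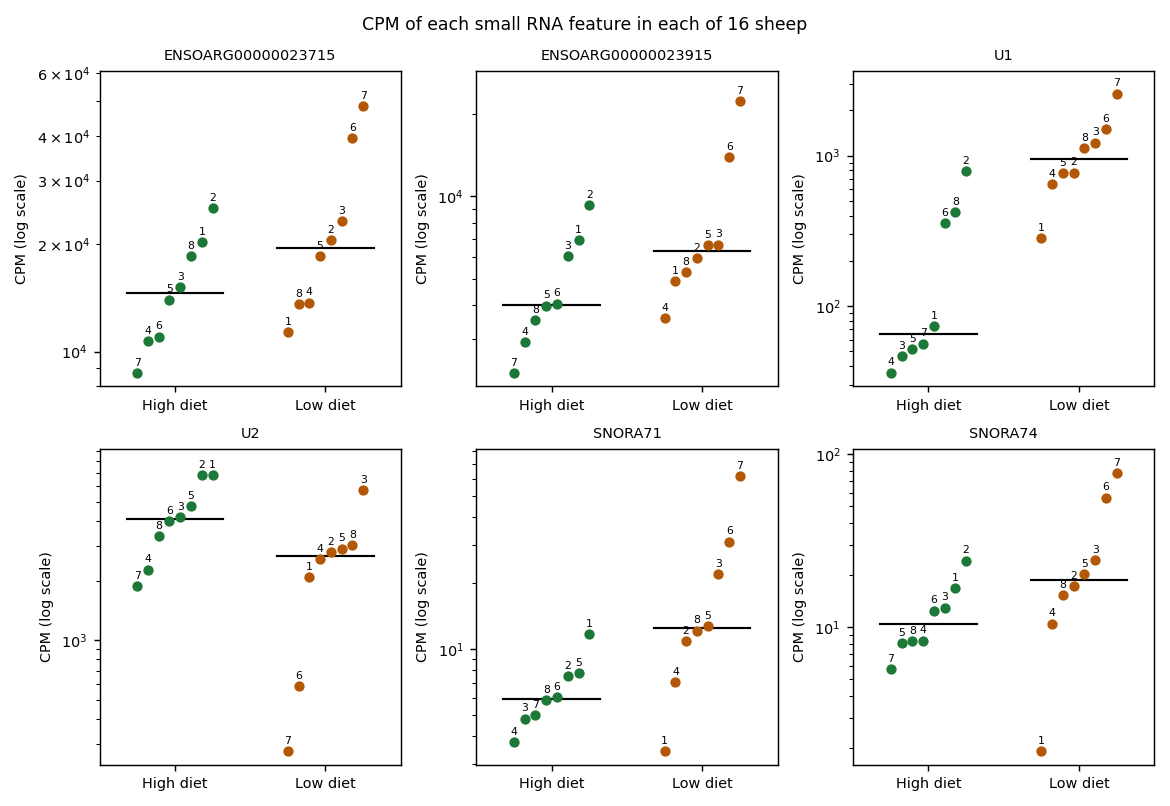
CPM (log axis, own scale in each panel) of each feature in 8 high diet and 8 low diet sheep; points are sheep ordered by level and marked with their replicate numbers, and horizontal lines are group medians. Low diet sheep 6 and 7 are highest in 5 panels and lowest for U2, and the high diet sheep fall into separate sets for U1.

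U1, which recognises the 5′ splice site, had a wide range in both diets. In well-fed sheep its lowest, median and highest levels were 36.2, 65.0 and 789 CPM, and in underfed sheep they were 283, 947 and 2581 CPM. The well-fed sheep fell into separate sets. Sheep 1, 3, 4, 5 and 7 were between 36.2 and 73.7 CPM, below every underfed sheep, while sheep 2, 6 and 8 were at 789, 358 and 423 CPM, within the range of the underfed sheep. No library lay in the 3.84-fold gap between 73.7 and 283 CPM. The mean was 229 ± 274 CPM (SD, n = 8) in well-fed and 1113 ± 704 CPM (n = 8) in underfed sheep, a ratio of 4.85, which was 3.50 without underfed sheep 6 and 7. A ratio of mean CPM from well-fed to underfed sheep above 1.5 was found for 5 of the 6 features, and for 21.4% of all tested features. The diet contrast chose U1, SNORA71 and SNORA74, so this count is a description and no sign of an excess. For ENSOARG00000023715 and ENSOARG00000023915 the ratios were 1.53 and 1.78, and 1.09 and 1.13 without underfed sheep 6 and 7. The ratio stayed above 1.5 for U1 and SNORA71 when underfed sheep 6 and 7 were left out.

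U2, which pairs with the branch point, had the lower mean in underfed sheep. Its lowest, median and highest levels were 1875, 4094 and 6856 CPM in well-fed sheep. In underfed sheep they were 275, 2675 and 5722 CPM. Underfed sheep 6 and 7, at 586 and 275 CPM, were below all other sheep, and the remaining underfed sheep lay within the range of the well-fed sheep. The mean was 4261 ± 1850 CPM (SD, n = 8) in well-fed and 2492 ± 1677 CPM (n = 8) in underfed sheep, a ratio of well-fed to underfed of 1.71, and of 1.34 without underfed sheep 6 and 7.

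U1 and U2 thus had opposite diet differences, and the ratio of U1 to U2 within a library separated the diets. It ran from 0.0108 to 0.126 in well-fed sheep and from 0.136 to 9.38 in underfed sheep, so that every underfed sheep was above every well-fed sheep, with the closest pair being well-fed sheep 8 (0.126) and underfed sheep 1 (0.136). The highest ratio was 0.372 when underfed sheep 6 and 7 were left out. Since the diet contrast chose both features, this separation is a description. None of the 6 features separated the diets by its own level, and among all tested features 0.762% had every underfed sheep above every well-fed sheep. That share is for single features. The share of feature pairs whose ratio separates the diets was not computed, so how common such a ratio is remains unknown.

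**Figure D3:**
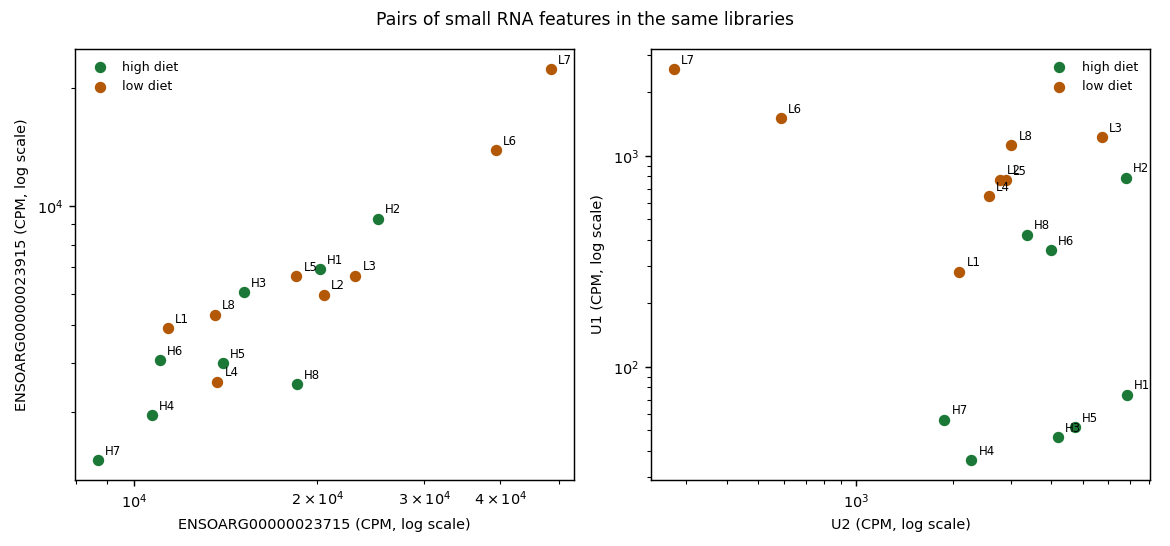
CPM of ENSOARG00000023915 against ENSOARG00000023715 (left) and of U1 against U2 (right) in 16 sheep, on log axes; each point is a sheep, coloured by diet and marked H (high diet) or L (low diet) with its replicate number. The left pair rises together over both diets, while on the right L6 and L7 have the lowest U2 and the highest U1, and 5 high diet sheep lie under 100 CPM of U1.

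SNORA71, an H/ACA RNA, had lowest, median and highest levels of 3.75, 5.94 and 11.7 CPM in well-fed sheep. In underfed sheep they were 3.42, 12.4 and 61.8 CPM. Of the underfed sheep, 5 were above every well-fed sheep and underfed sheep 1 was below all of them. The mean was 6.55 ± 2.47 CPM (SD, n = 8) in well-fed and 20.1 ± 19.0 CPM (n = 8) in underfed sheep, a ratio of 3.07, and of 1.74 without underfed sheep 6 and 7.

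SNORA74, another H/ACA RNA, had lowest, median and highest levels of 5.71, 10.4 and 24.2 CPM in well-fed sheep. In underfed sheep they were 1.93, 18.7 and 77.5 CPM. Underfed sheep 3, 6 and 7 were above every well-fed sheep, sheep 3 by a small margin (24.5 against 24.2 CPM), and underfed sheep 1 was again the lowest of all. The means of 12.1 ± 6.03 CPM (SD, n = 8) in well-fed and 27.9 ± 25.5 CPM (n = 8) in underfed sheep gave a ratio of 2.30. Without underfed sheep 6 and 7 the ratio was 1.23 and the fitted log2 fold change went from 0.56 to -0.034.

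The features differed in how far sheep of the same diet were apart. Pooled over the diets, the SD of log2(CPM + 1) was 1.39 for U1, 1.12 for U2, 1.11 for SNORA74, 0.90 for SNORA71, 0.78 for ENSOARG00000023915 and 0.64 for ENSOARG00000023715, against a median of 0.49 over all tested features. The order was not the same in each diet. Among well-fed sheep the SD of log2 CPM was 1.74 for U1 and 0.50 to 0.68 for the other 5 features, whereas among underfed sheep it was 0.95 for U1, 1.62 for SNORA74, 1.44 for U2, 1.29 for SNORA71, 0.86 for ENSOARG00000023915 and 0.75 for ENSOARG00000023715. The pooled SD of U1 was above that of 99.7% of the tested features with all 16 sheep and also without underfed sheep 6 and 7. The U2 value depended on those sheep. It was above 97.8% of features with them and above 73.3% without them, when its SD was 0.60 and the median of all features was 0.44. The most abundant feature, ENSOARG00000023715, was above 72.6% of features with them and above 56.4% without them.

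**Figure D4:**
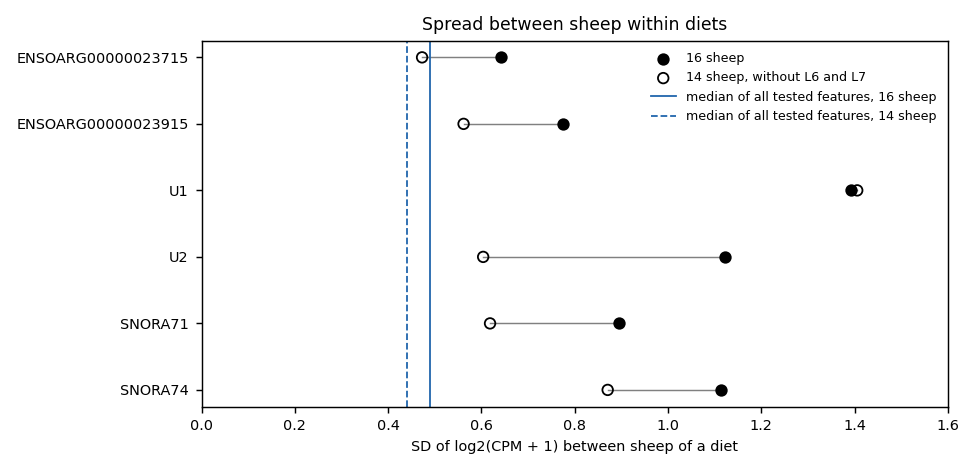
SD of log2(CPM + 1) between sheep of the same diet, pooled over the diets, for each feature (linear axis), with all 16 sheep (filled points) and without low diet sheep 6 and 7 (open points); vertical lines are the medians over 11148 tested features. U1 stays at 1.39 and 1.41, while the point of U2 moves from 1.12 to 0.60.

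The levels of 4 of the features rose and fell together over sheep. Among the 6 pairs of ENSOARG00000023715, ENSOARG00000023915, SNORA71 and SNORA74, Pearson's r of log2 CPM over 16 sheep was 0.81 to 0.93 and Spearman's rho 0.72 to 0.88, and all 6 pairs passed an adjusted p under 0.05 (permutation test with 100000 resamples, adjusted over all 15 pairs of the 6 features). The diet contrast chose 4 of the features and can add to a pooled r, so the pairs were also computed with the diet means removed, which left r at 0.78 to 0.91 with all 6 pairs passing. With underfed sheep 6 and 7 left out, r was 0.56 to 0.82 and 5 of the 6 pairs passed. The exception was ENSOARG00000023915 with SNORA71, at r = 0.56 (permutation test, adjusted p = 0.0575). Within the well-fed sheep r was 0.53 to 0.96, and 2 of the 6 pairs passed. Within the underfed sheep it was 0.78 to 0.96, and all 6 passed.

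The pair of the most abundant features, neither of which was chosen for diet, had r = 0.93 over 16 sheep (permutation p = 1e-05, the smallest that 100000 resamples can give, adjusted p = 5e-05) and rho = 0.84 (permutation p = 0.00012). Within diets r was 0.86 in well-fed sheep (exact permutation p = 0.00789) and 0.94 in underfed sheep (exact permutation p = 0.000769). Underfed sheep 6 and 7 were the sheep farthest from the median, and without them r was 0.82 (permutation p = 0.00039). With the log2 total of reads, the 5 features other than U1 had an r of -0.25 to -0.07 and a rho of -0.39 to -0.04 over 16 sheep, with adjusted p for r of 0.583 or more (permutation test, 18 relations). Within diets the r with depth ran from -0.59 to 0.01 in well-fed and from -0.44 to 0.38 in underfed sheep, and for ENSOARG00000023915 it was -0.59 and 0.38. The parts of depth and of the poly(A) selection in the correlations between features were not tested.

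U2 moved with ENSOARG00000023715, ENSOARG00000023915, SNORA71 and SNORA74 among well-fed sheep and against them among underfed sheep. In well-fed sheep its r was 0.84 with ENSOARG00000023715 (exact permutation p = 0.0104, adjusted p = 0.0313), 0.92 with ENSOARG00000023915 (exact permutation p = 0.00159, adjusted p = 0.0119), 0.81 with SNORA71 and 0.86 with SNORA74, and all 4 passed. In underfed sheep the same 4 pairs had a negative r, from -0.85 to -0.54, and 2 passed the test. With underfed sheep 6 and 7 left out, the 4 pairs had a positive r over 14 sheep, from 0.51 to 0.71, and 3 passed. Over all 16 sheep the r of these pairs was -0.55 to -0.40 and rho was 0.0029 to 0.13. That negative r over 16 sheep therefore depends on underfed sheep 6 and 7. The 14 sheep include all well-fed sheep, and r within the remaining underfed sheep alone was not computed. The difference between the diets was not tested.

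U1 levels form separate clusters, so r is given for its pairs mainly over the 11 sheep of the upper cluster, 3 well-fed and 8 underfed. That cluster was cut on the levels of U1 itself, after seeing the data, and only well-fed sheep fell outside it. Diet means were not removed there, so the diet contrast that chose U1, U2, SNORA71 and SNORA74 can add to r. There p was adjusted over its 5 pairs. There the r of U1 was 0.96 with SNORA71 and rho 0.93 (permutation p = 1e-05, the smallest possible, and 0.00015, with adjusted p = 5e-05 for r). With SNORA74, r was 0.89 and rho 0.91 (permutation p = 0.0002 and 0.00025, with adjusted p = 0.0005 for r). Within this cluster both also passed with underfed sheep 6 and 7 left out. Over those 9 sheep, 3 well-fed and 6 underfed, r was 0.91 for SNORA71 and 0.80 for SNORA74 (exact permutation, adjusted p = 0.00172 and 0.00827). The pairs with the most abundant features did not pass over the 9 sheep. For ENSOARG00000023715 r was 0.83 (permutation, adjusted p = 0.00225) and 0.61 without those sheep (exact permutation, adjusted p = 0.141), and for ENSOARG00000023915 it was 0.82 (permutation, adjusted p = 0.00225) and 0.55 without them (exact permutation, adjusted p = 0.156). With U2, r was -0.57 (permutation, adjusted p = 0.0719) and 0.43 without them (exact permutation, adjusted p = 0.251). The lower cluster holds 5 sheep, too few for a correlation. With both clusters pooled and underfed sheep 6 and 7 left out, r was 0.58 with SNORA71 and 0.41 with SNORA74. Neither passed (permutation, adjusted p = 0.0531 and 0.157 over 15 pairs), and rho was 0.69 and 0.67. With diet means removed over all sheep, r was 0.52 and 0.59, and both passed. Within well-fed sheep r was 0.26 and 0.51, and neither passed. Within underfed sheep, all in the upper cluster, r was 0.97 and 0.96, and both passed.

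**Figure D5:**
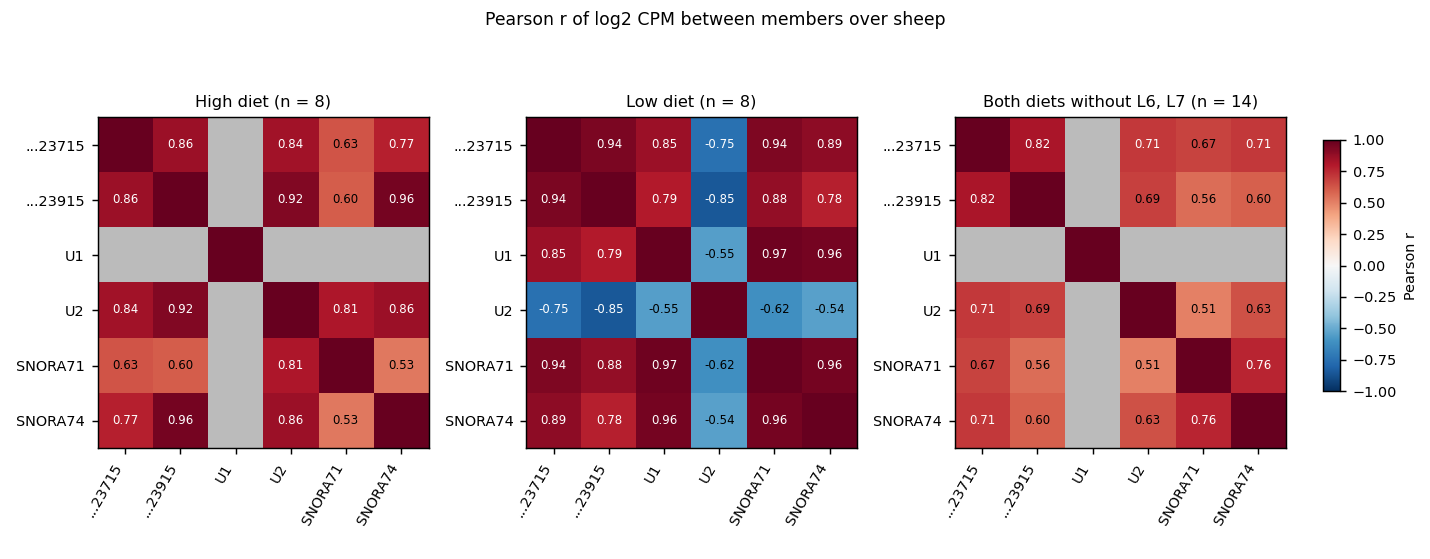
Pearson's r of log2 CPM for each pair of features in 8 high diet sheep (left), 8 low diet sheep (middle) and both diets without low diet sheep 6 and 7 (right); colour runs from -1 (blue) to 1 (red), identifiers are shortened to their last 5 digits, and U1 is grey where its levels form separate clusters. The U2 row is red on the left and right and blue in the middle, where it reaches -0.85.

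Among all 11147 other tested features, the ones with levels most like ENSOARG00000023715 over 16 sheep were ENSOARG00000022073 (r = 0.96), ENSOARG00000000584 (0.96), ENSOARG00000020076 (0.93), ENSOARG00000022982 (0.93) and then ENSOARG00000023915 (0.93). SNORA74 came 13th and SNORA71 18th in that order, whereas U2 came 9822nd. The place of U2 rests on underfed sheep 6 and 7, since its r was -0.47 with them and 0.71 without them. The features least like ENSOARG00000023715 were ENSOARG00000019394 (r = -0.94), ENSOARG00000004287 (-0.93) and ARHGAP11B (-0.90). For ENSOARG00000023915 the most alike features were ENSOARG00000022982 (r = 0.96), ENSOARG00000022732 (0.96), ENSOARG00000014089 (0.95), ENSOARG00000023190 (0.93) and ENSOARG00000023715 (0.93), and the least alike were ARHGAP11B (-0.93), ENSOARG00000002047 (-0.93) and ENSOARG00000004249 (-0.92). In the order for ENSOARG00000023915, SNORA74 came 65th, SNORA71 73rd and U2 9775th. These values are descriptions. Without underfed sheep 6 and 7 the same features had r of 0.82 to 0.92 with ENSOARG00000023715 for the most alike and of -0.84 to -0.77 for the least alike. With ENSOARG00000023915 they had 0.82 to 0.91 and -0.81 to -0.78.

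Of 86 genes listed for proteins that bind, mature or trim these RNAs, 5 had an identifier, so the lists are mostly unmeasured here. No gene was matched for the 7SK particle with P-TEFb, the Sm proteins, the H/ACA particle or the C/D particle. All 5 identifiers come from the authors' lists of genes selected on these sheep and are not independent evidence of a direction, and 1 of the 5 was called where 16.2% of all tested features were. INTS9, a subunit of the Integrator complex that cleaves the 3′ end of snRNA precursors, was that gene, with 19.5 ± 12.1 CPM (SD, n = 8) in well-fed and 39.3 ± 15.96 CPM (n = 8) in underfed sheep (limma log2 fold change 0.96 ± 0.33 SE, adjusted p = 0.0647), and it was not called without underfed sheep 6 and 7, nor when any 1 of well-fed sheep 1, 5, 6 and 8 or of underfed sheep 4, 6 and 8 was left out. The other 4 did not pass. SNRPB2, a protein of the U2 particle, was at 29.9 ± 11.1 CPM (SD, n = 8) in well-fed and 21.1 ± 7.10 CPM (n = 8) in underfed sheep (limma adjusted p = 0.121). NCBP1, a subunit of the nuclear cap-binding complex, was at 272 ± 81.4 and 204 ± 39.9 CPM (limma adjusted p = 0.102), and DIS3, a nuclease of the RNA exosome, at 272 ± 125 and 175 ± 74.5 CPM (limma adjusted p = 0.105). DIS3, like U2, was lowest in underfed sheep 6 and 7, at 77.3 and 88.9 CPM.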

How the data were processed

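RNA-seq libraries of 16 sheep were used, grouped by diet from the sample labels. The authors used CASAVA 1.8 and TopHat2 2.0.10 (versions per the submitters' notes), aligned to Oar_v3.1, counted reads on Ensembl genes with HTSeq, and deposited CPM, the reads of a gene scaled to the library total. The strand setting and the treatment of multiply mapped reads are not given in the sources used here. Every CPM value came out as whole reads within 0.05 reads, so totals were recovered from it. Intervals are Wilson intervals at 95% and cover counting error only.

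The diets were compared with limma 3.58.1 (trend) in R 4.3.3 on log2(CPM / TMM factor + 1), with TMM factors from edgeR 4.0.16, for features above 5 CPM in at least 8 libraries. Fold changes are on this scale and understate changes of low features. P-values were adjusted by the Benjamini-Hochberg method over all features tested. A call needed an adjusted p under 0.1 and a ratio of mean CPM above 1.5. Single values were compared with two-sided exact permutation tests, and correlations with permutation tests in Python 3.11.15 (pandas 2.3.3, numpy 2.4.6, scipy 1.17.1, matplotlib 3.10.9). The fit was run on simulated counts, drawn independently for each feature and sheep with the same dispersion throughout. The simulation had no outlying sheep and no variation shared between features, so it does not cover these traits of the data. Alternatives covered the normalization, pseudocount, filter, count tests on recovered reads (edgeR's quasi-likelihood test and DESeq2 1.42.0), the replicate block and each sheep left out. Leaving out underfed sheep 6 and 7 was chosen after seeing the data.

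The members and gene lists were chosen with earlier results of these data known. Named genes are the members, other named small RNAs, in each protein list the most abundant and any called gene (the values of 1 of these are not reported here), the 5 most and 3 least alike features of each of the most abundant pair, and the features ranking next in CPM. Symbols came from the authors' gene lists, 1 of which was held only in part, and cover 1763 of 25197 features. The authors' own fold changes and p-values in those lists were not used. No sequence of these features was used here.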

Additional observations from a re-analysis of the deposited data

Results flagged for a closer look

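SNORA71 in underfed sheep 7, at 61.8 CPM, was far from the other underfed sheep, the next being sheep 6 at 31.0 CPM. The gap was 0.528 of the range of the group, just above Dixon's critical value of 0.526 for 8 samples. It was the only one of 12 groups (6 features in each of the diets) to pass, and chance alone passes about 1 in 20 groups. Without underfed sheep 6 and 7, the mean in underfed sheep was 11.4 ± 6.31 CPM (SD, n = 6).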

How the results depend on the processing

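Neither of the most abundant features was called under any of 27 alternatives, with adjusted p of 0.263 to 0.952 for ENSOARG00000023715 and 0.163 to 0.816 for ENSOARG00000023915. The direction turned only without underfed sheep 6 and 7, to -0.025 on the log2 scale for ENSOARG00000023715 and to -0.034 for SNORA74. With those sheep left out, 402 features were called instead of 1808, and 0 of the 5 matched protein genes instead of 1. Leaving out each sheep in turn gave 692 to 2702 called features, with 1013, 836, 913 and 866 without well-fed sheep 1, 5, 6 and 8 and 886 and 692 without underfed sheep 4 and 6. It gave 0 to 4 protein genes and 8 to 13 correlated pairs, against 11 with all sheep, counts that include the 5 pairs of U1 despite its clusters. DESeq2 size factors, edgeR's quasi-likelihood test and DESeq2 on recovered reads each called 2 protein genes. The cause was not tested.

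Same-numbered sheep of the diets were not paired by any label. Their deviations from the group means had a mean correlation of -0.15, and 2 of 8 pairs were above 0.1. 1 well-fed and 0 underfed sheep correlated best with their own number. With the replicate block, 1067 features and 0 protein genes were called and 5 pairs were correlated.

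Nothing in the labels says how the libraries were batched. Depth limited SNORA74 most, with 22 reads in underfed sheep 1. The CV of SNORA71 in well-fed sheep was 37.7%, and 24.996% without the highest sheep.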

Other observations

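In the part of the authors' lists used here, 3 further small RNAs of these classes are named, chosen by the same diet contrast and given without a test. SNORD17, a C/D box RNA, was at 224 ± 70.2 CPM (SD, n = 8) in well-fed and 478 ± 428 CPM (n = 8) in underfed sheep, with 1448 CPM in underfed sheep 7 and 52.1 CPM in underfed sheep 1. SNORA54 was at 6.45 ± 2.07 and 13.9 ± 12.1 CPM, with its highest level, 38.0 CPM, in underfed sheep 7. SCARNA16, an RNA of Cajal bodies, was at 6.64 ± 3.36 and 15.3 ± 9.24 CPM. Its highest level, 30.7 CPM, was in underfed sheep 3 and its lowest, 0.702 CPM, in underfed sheep 1, as for SNORD17, SNORA71 and SNORA74.

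A principal component analysis of the other 11142 tested features, chosen after seeing the data, placed underfed sheep 7 and 6 at the end of the second component (13.2% of the variance), with scores of 0.82 and 0.28 against at most 0.14 for the others. The score had r = 0.89 and rho = 0.89 with ENSOARG00000023715 (permutation p = 1e-05 for both, the smallest possible, and adjusted p = 9e-05 for r over 18 relations) and r = 0.84 without those sheep (permutation p = 0.00013). For ENSOARG00000023915 r was 0.90 and rho 0.83, and r was 0.82 without those sheep (permutation p = 1e-05, 0.00018 and 0.00039). With SNORA71 r was 0.85 and with SNORA74 0.75 (permutation test, adjusted p = 0.00042 and 0.00284), and without those sheep 0.59 and 0.51 (permutation p = 0.0261 and 0.0593). With U2 r was -0.68 (permutation test, adjusted p = 0.0482) and rho 0.029, and r was 0.57 without those sheep (permutation p = 0.033), so that the negative relation rests on them. The first component, with 60.9% of the variance, had r between -0.28 and 0.32 with the 5 features other than U1, with all adjusted p of 0.571 or more (permutation test).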
